A study of Homo sapiens with 10 samples.

Results

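The replication-independent histone genes H3-3A, H3-3B, H2AZ1, H2AZ2, H1-10, MACROH2A1, MACROH2A2, H2AX and CENPA were examined in poly(A) 3′-sequencing of IMR-32 cells, a human neuroblastoma line. The members were fixed by name, and a peak was assigned to a member when its summit lay in the gene body annotated by GENCODE 44 or up to 600 bp past its 3′ end. By this rule 56 of the 178837 peaks in the list belonged to the 9 genes, and every gene had at least 2. Libraries were made from IMR-32 cells transduced with lentiviral shRNAs and selected with puromycin. CDK12, a kinase of the RNA polymerase II tail, was depleted with sh22 or sh98, its relative CDK13 with sh701 or sh704, and control cells carried an shRNA to GFP. Each of these shRNAs was sequenced in biological duplicate (2 libraries), giving 4 libraries for CDK12, 4 for CDK13 and 2 for GFP. All 10 libraries share the cell line, the viral transduction and the selection, and all 10 were merged before the peaks were called. The list therefore holds no value per library, per shRNA or per group and no strand, and no difference between depleted and control cells could be measured. What it shows is where the reads of the pooled cells formed peaks in these genes, and how many distinct reads supported each peak. A peak is not always a transcript end of the gene it was assigned to, as described below.

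Most histones are made from replication-dependent genes, which have no introns and whose mRNAs end in a conserved stem-loop in place of a poly(A) tail. The replication-independent genes encode the variants that a cell makes and deposits also outside of S phase, and their mRNAs are usually spliced and polyadenylated. H3-3A and H3-3B encode the same H3.3 protein, which marks transcribed genes and is also placed at telomeric repeats. H2AZ1 and H2AZ2 encode H2A.Z, found around promoters. MACROH2A1 and MACROH2A2 encode histones with a large macrodomain that are enriched on silent chromatin. H1-10 encodes a linker histone, CENPA the centromeric H3, and H2AX the H2A variant that is phosphorylated at DNA breaks. Cleavage of such a transcript is directed by a poly(A) signal, most often AATAAA or its variant ATTAAA, a short way upstream of the cut. Priming with oligo(dT) can also start on a run of A inside a transcript, so the genomic bases just past each peak are given as well.

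The following stretches of 30 bases carry the hexamers at the strongest 3′ ends of the members. They are shown because they are the sequence feature by which a poly(A) site can be recognized at a peak, and they read 5′ to 3′ on the strand of the gene, from GRCh38, with the hexamer in capitals. Peaks of a gene are numbered from its 5′ end.
H3-3A, peak 4 (chr1:226071988-226072017, + strand): atacATTAAActatacctgcttttggtctt
H3-3B, peak 2 (chr17:75778246-75778275, − strand): ttgcAATAAAactggttatgacttgatcca
H3-3B, peak 3 (chr17:75777452-75777481, − strand): tacaAATAAActtgtttatccaactaagtg
H3-3B, peak 4 (chr17:75776428-75776457, − strand): ctaaAATAAAatttttgaagttaagatttt
H2AZ1, peak 3, upstream (chr4:99948082-99948111, − strand): gttcAATAAAggtcatatcccaaactagtt
H2AZ1, peak 3, downstream (chr4:99948052-99948081, − strand): gtgtATTAAAtttgcttggttgtaatagga
H2AZ2, peak 2 (chr7:44834092-44834121, − strand): tgggAATATAtctttacaatgattgatacc
H2AZ2, peak 3 (chr7:44826788-44826817, − strand): tggaATTAAAtatattctgtgtaaaaagag
H1-10, peak 2 (chr3:129314767-129314796, − strand): gcacAATAAAgcgtttaaacctttcagcct
MACROH2A1, peak 13 (chr5:135334374-135334403, − strand): atttAGTAAAatgttaaaccgttgttgtga
MACROH2A2, peak 15 (chr10:70112249-70112278, + strand): aaaaAATAAAagatccagtgtctttcttac
H2AX, peak 1 (chr11:119093873-119093902, − strand): ttttATTAAAggattgttttttttttaaat
CENPA, peak 8 (chr2:26794559-26794588, + strand): agatAATAAAaatcaaaatatttaatgaaa

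Each peak has a pileup, the number of reads that covered its summit after extension to 100 bp, which was recovered from the deposited fold enrichment and p-value. Because the peak caller kept 1 read per position and strand, the pileup counts distinct read positions and levels off at strong ends, so it ranks ends but is not a transcript count. The median pileup of all peaks was 9, the 99th percentile 44 and the largest 200. At a poly(A) site of the gene, the edge of the peak that is 3′ along the gene approximates where the transcripts were cut. A peak was called terminal when its summit lay between 200 bp upstream and 600 bp downstream of any annotated transcript end, and otherwise exonic or intronic. Of 12 markers of adrenergic neuroblastoma, 12 had a terminal peak, with pileups from 16 (ISL1) to 114 (PHOX2A), against 0 of 4 leukocyte, 1 of 4 epithelial (EPCAM, pileup 13) and 3 of 5 fibroblast markers (8 to 14).

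All 9 members had a terminal peak, as did 68.7% of the 20033 protein-coding genes. The strongest terminal peak had a pileup of 75 in H3-3B, 68 in H2AZ1, 59 in MACROH2A1, 55 in both H1-10 and MACROH2A2, 43 in H3-3A, H2AZ2 and CENPA, and 20 in H2AX. Among the 13761 genes with a terminal peak the median was 23, the 90th percentile 44 and the 99th percentile 66. H3-3B and H2AZ1 therefore stood at the percentiles 99.6 and 99.2, MACROH2A1 at 97.6, H1-10 and MACROH2A2 at 96.4, and H3-3A, H2AZ2 and CENPA at 88.9. H2AX was lowest, at percentile 39.4, below the median gene. The order depended on the measure: by the summed pileup of its terminal peaks H2AX stood at 53.0, above the median gene, and H2AZ2 at 60.3, and by the deposited fold H2AX stood at 29.5 and H3-3B at 34.5. The peaks behind the values of MACROH2A1, MACROH2A2 and H2AX also lie in a gene on the opposite strand or in its end window, so part of their reads may be of that gene. Without such peaks the strongest terminal pileup was 16 in MACROH2A1 and 13 in MACROH2A2, at internal transcript ends, and H2AX had no peak left. The value of H3-3A came from peak 3, whose summit lies in coding sequence and whose edge lies in a genomic run of A. The peak at the canonical end of H3-3A had a pileup of 25, which stands at percentile 55.2.

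Of the 56 peaks, 24 were terminal (42.9%, exact 95% binomial interval 29.7% to 56.8%), 6 lay in other exonic sequence (10.7%) and 26 in introns (46.4%, 33.0% to 60.3%). Over the 148735 peaks of all protein-coding genes these shares were 19.3%, 10.5% and 70.2%. There a peak in several genes was counted once, as terminal before exonic before intronic, whereas member peaks were classed by the member alone. The terminal class takes ends of any annotated transcript. With canonical transcripts only, the terminal share of the members was 19.1% (9 of 47), and that of all genes was not computed. The intervals cover counting error only, since peaks of a gene are not independent. Members' peaks were also high: 13 of 56 (23.2%) had a −log10 q-value of at least 20, which 7.22% of all peaks reached, and the median pileup was 24 for their terminal peaks against 16 for those of all protein-coding genes, and 12 against 8 for intronic peaks. For 17 of the 56 peaks the summit also lay in another gene or its end window. Among the other 39, 18 were terminal and 18 intronic (46.2% each).

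**Figure D1:**
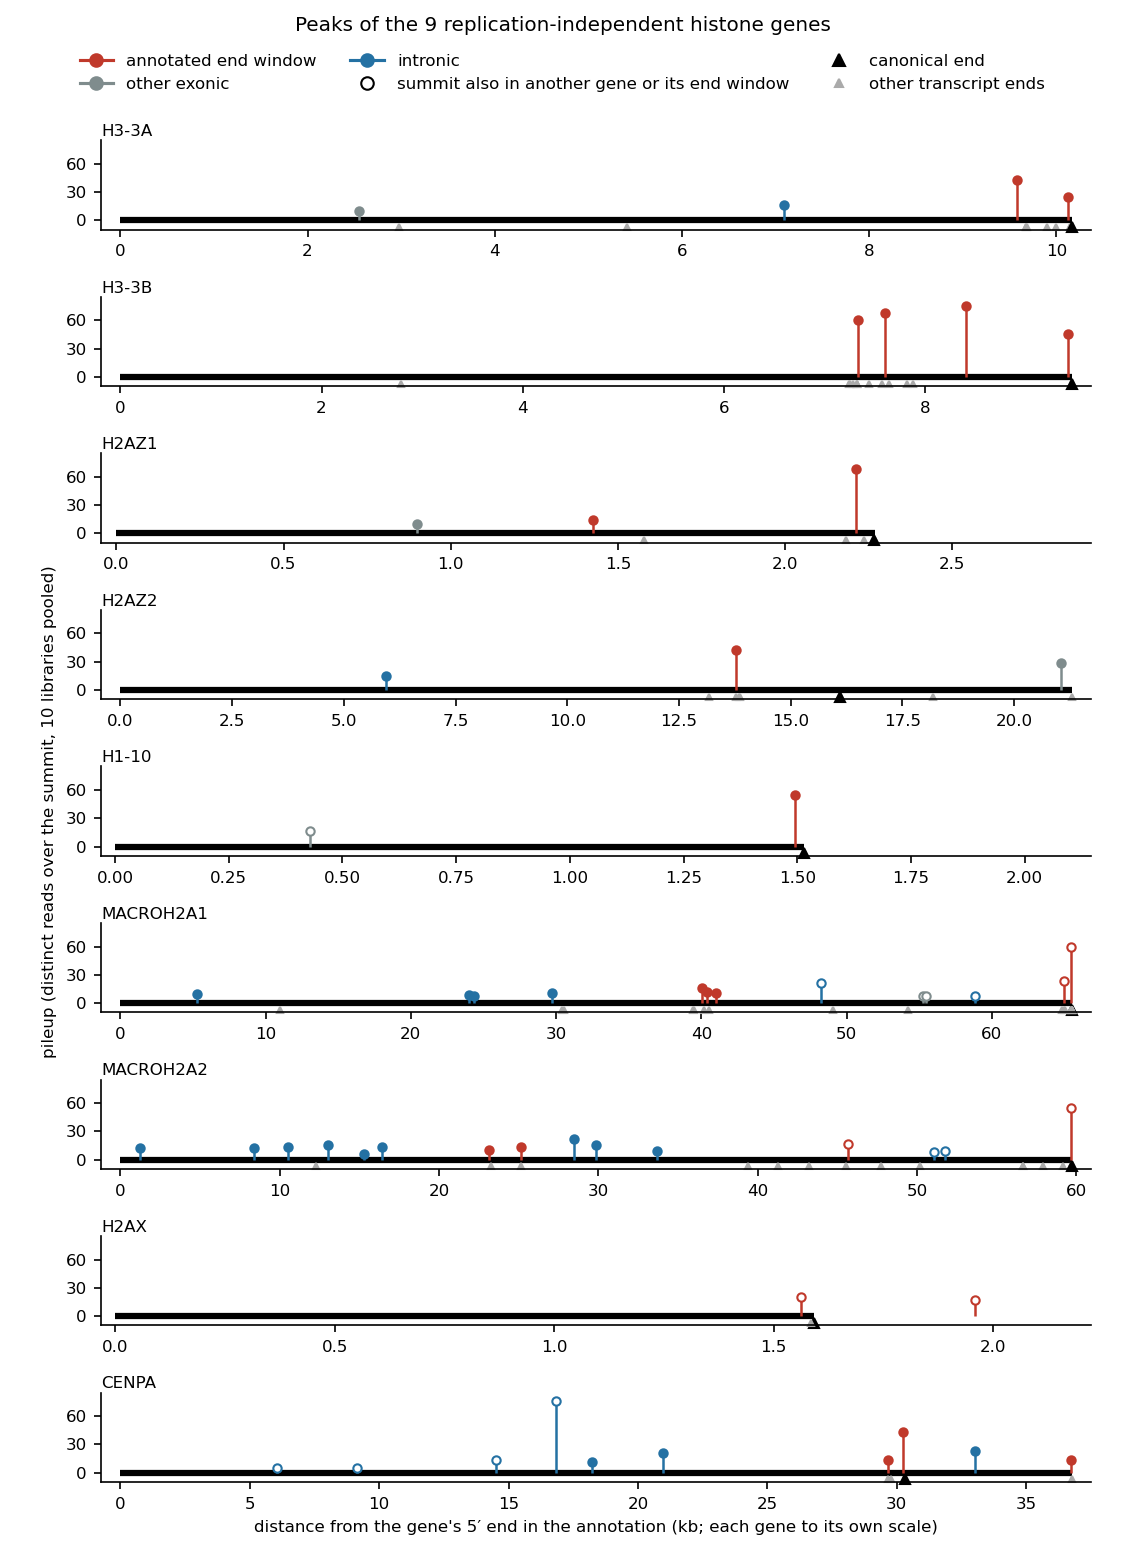
Pileup at the summit of each of the 56 peaks (y axis, distinct reads in the 10 pooled libraries) by distance from the 5′ end of its gene (x axis, kb, each gene to its own scale), with triangles at annotated transcript ends and open symbols where the summit also lies in another gene or its end window. The short genes have 2 to 4 peaks with the highest in the last exon, MACROH2A1 and MACROH2A2 many low intronic peaks before a high terminal one, and CENPA a peak of 76 at the end of the upstream gene SLC35F6.

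The genes of the H3.3 protein differed in how their ends were laid out. H3-3A (ENSG00000163041.13, chr1:226061851-226072019, + strand) had 4 peaks, with pileups of 10 in exon 2, 16 in intron 3, 43 in the last exon and 25 at the canonical end. The weaker of its terminal peaks was the one at the annotated end: the 3′ edge of peak 4 lay 1 bp past the end of the canonical transcript, 28 and 38 bp after the start of 2 copies of ATTAAA. The stronger, peak 3, had its summit in coding sequence, its edge 46 bp past the last codon before the stop and 1 bp before the end of the transcript H3-3A-204. No core hexamer, meaning AATAAA or ATTAAA, lay within 50 bp upstream of that edge. The genomic sequence there runs into A on both sides of the edge, as the printed stretch shows, with the 10 bases past the edge in capitals.
H3-3A, peak 3 (chr1:226071503-226071532, + strand): ttcattctcaaaaaaaaaaaAAAAAATTTC
Because of the 4 bases that end this window, it held 6 A in 10 and was not called A-rich by the limit of 7 used below.

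H3-3B (ENSG00000132475.10, chr17:75776434-75785893, − strand) had 4 peaks, all terminal and all in the 3′ UTR. Their pileups were 61, 68, 75 and 46, and their edges lay 123, 690, 1344 and 2173 bp past the last codon before the stop. The most distal, 9 bp past the canonical end and 28 bp after the start of an AATAAA, was thus the lowest, and the highest was an internal site. Peaks 2 and 3 were 463 and 460 bp wide and each held AATAAA, which began 363 and 223 bp upstream of the edge. The most distal peak was 121 bp wide. The local background at these summits was 6.87 to 7.01 reads, so the deposited fold enrichment of H3-3B was only 5.97 to 9.64, and by fold its strongest terminal peak stood at percentile 34.5. No intronic peak was found in H3-3B, and 1 in H3-3A.

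H2AZ1 and H2AZ2 also differed from each other. H2AZ1 (ENSG00000164032.12, chr4:99948086-99950355, − strand) had its highest peak at its end: the pileups were 10 in intron 2 of the canonical transcript, 14 in exon 4 and 68 at the end. The high peak extended 35 bp past the canonical end. Its AATAAA starts 19 bp before that end, and a copy of ATTAAA in the flanking sequence lies 24 bp before the edge of the peak. H2AZ2 (ENSG00000105968.19, chr7:44826791-44848087, − strand) had pileups of 15 in intron 2, 43 at a proximal end and 29 at the most distal end. The proximal peak had no core hexamer, and an AATATA began 19 bp before its edge, which lay 406 bp past the last codon before the stop. Peak 3, at the distal end, was 521 bp wide, and its edge lay 2 bp past the end of H2AZ2-201 with ATTAAA beginning 24 bp upstream. Its summit was 244 bp before that end, outside the 200 bp window, so it was counted as exonic. The canonical end of H2AZ2 lies between them and had no peak: the nearest edge was 2120 bp upstream.

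The linker histone gene H1-10 (ENSG00000184897.7, chr3:129314771-129316286, − strand) had 2 peaks, with pileups of 16 in the coding sequence and 55 at the end. The terminal one was 326 bp wide and its edge lay 210 bp past the annotated end. The AATAAA printed above starts 21 bp before that end and within 2 bp of the summit. The coding peak also lay in the antisense gene H1-10-AS1.

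The macroH2A genes are the longest of the group, at 65.534 and 59.739 kb, and had the most peaks. MACROH2A1 (ENSG00000113648.17, chr5:135334381-135399914, − strand) had 13, of which 5 were terminal, 2 exonic and 6 intronic. Peak 13, with a pileup of 59, had its edge 4 bp past the canonical end. That end has no core hexamer, and an AGTAAA starts 18 bp before it. Peak 12, with a pileup of 23, had its edge 56 bp past the last codon before the stop, and the next 10 genomic bases were all A. The 3 other terminal peaks, with pileups of 16, 12 and 11, clustered in intron 5 of the canonical transcript near the ends of shorter transcripts. Of these, peak 5 lay 10 bp before the end of MACROH2A1-219, with ATTAAA beginning 16 bp upstream of its edge. Its 6 intronic peaks had pileups of 7 to 21, and 5 of them were A-rich, that is, had at least 7 A in the 10 genomic bases past the edge.

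MACROH2A2 (ENSG00000099284.15, chr10:70052544-70112282, + strand) had 15 peaks, 4 terminal and 11 intronic. Peak 15, with a pileup of 55, was the widest of all member peaks at 525 bp. It extended 87 bp past the canonical end, 29 bp before which an AATAAA starts. The other terminal peaks had pileups of 10, 13 and 17, all below that of the canonical end. Intronic peaks had pileups of 6 to 22, and 8 of 11 were A-rich. Of all 15 peaks, 10 lay in canonical introns 1 and 2, and 1 more in exon 2, which is 5′ UTR. Per 10 kb of intron MACROH2A2 had 2.46 intronic peaks, above the 90th percentile of 2.29 among 12919 genes, and MACROH2A1 had 1.24, close to the median of 1.14. Among the others the density was 2.01 in CENPA, 1.58 in H3-3A, 0.700 in H2AZ2 and 0 in H3-3B, and H2AZ1, H1-10 and H2AX have no intron outside of some transcript's exons. These densities count peaks whose summit also lies in another gene or its end window, as do those of all genes. They include peaks 13 and 14 of MACROH2A2, 8 and 11 of MACROH2A1, and 1 to 4 of CENPA. Densities without such peaks were not computed, and MACROH2A2 may then not exceed the 90th percentile.

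Both macroH2A genes run into other genes at the 3′ end. Peaks 8 to 13 of MACROH2A1 also lay in the long noncoding gene PITX1-AS1 on the + strand. At the edge of peak 13 on the strand of PITX1-AS1 an AATAAA lay 20 bp upstream, 3353 bp before the nearest end of that gene. Peaks 13 to 15 of MACROH2A2 also lay within AIFM2, on the − strand, whose most distal transcript end lies far past its canonical one, and peak 12 lay just past that distal end. The edge of peak 15 was 426 bp past the canonical end of AIFM2. Which strand the reads of these peaks came from cannot be told from the list.

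CENPA (ENSG00000115163.15, chr2:26764289-26801067, + strand) had 10 peaks, 3 terminal and 7 intronic. Its canonical end carried peak 8, with a pileup of 43, whose edge lay 72 bp past the end. An AATAAA starts 26 bp before that end. A further end 6478 bp downstream, that of CENPA-204, carried peak 10 with a pileup of 13, and peak 7, also 13, lay in the 3′ UTR. The highest of all member peaks, with a pileup of 76, was peak 4 of CENPA, but its edge lay 2 bp before the canonical end of SLC35F6, a gene on the same strand that a long CENPA transcript overlaps. Peaks 1 to 6 all lie upstream of the canonical start of CENPA, in introns of CENPA-206, and peaks 1 to 4 lie in SLC35F6. Peak 9, with a pileup of 23, lay between the canonical and the distal end, with ATTAAA 21 bp before its edge and 7 A in the 10 bases past it.

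H2AX (ENSG00000188486.4, chr11:119093874-119095465, − strand) has no intron, like the replication-dependent genes, and its mRNA is known to end either at a stem-loop or at a poly(A) site. Among the 9 members only H2AX held the stem-loop, searched on the strand of each gene as 16 bases with a stem of 6 pairs, while 68 of 68 replication-dependent genes held it. It lies 1024 bp before the end of the gene, and the stem is in capitals.
H2AX stem-loop (chr11:119094898-119094913, − strand): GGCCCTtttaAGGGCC
No peak summit lay within 100 bp of it, and the nearest edge was 1160 bp further on, at peak 1. That peak had a pileup of 20 and extended 136 bp past the canonical end, 24 bp before which ATTAAA starts. Peak 2, with a pileup of 17, lay 433 bp past the end. Neither peak could be assigned to a strand, and both are among the peaks shared with another gene.

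Hexamers were counted upstream of the annotated ends and upstream of the edges of the peaks. Of the 9 canonical ends, 7 (77.8%, exact 95% interval 40.0% to 97.2%) had AATAAA or ATTAAA within 50 bp upstream, against 81.3% of the 13761 genes with a terminal peak; the exceptions were MACROH2A1 and H2AZ2. Measured from the edges, 5 of 24 terminal peaks had a core hexamer within 50 bp (20.8%, 7.1% to 42.2%), against 53.2% of 22866 terminal peaks whose genes all lie on 1 strand. Among the 18 member peaks of that kind the count was 5 (27.8%, 9.69% to 53.5%). With 12 hexamers, the core ones and 10 variants, the counts were 13 of 24 (54.2%) and, on 1 strand, 9 of 18, against 70.7%. A core hexamer lay anywhere inside the interval in 11 of 24. Of the 15 peaks with a pileup of at least 20 that were terminal or lay at the distal end of H2AZ2, 10 held a core hexamer. The widths of these 15 ran from 113 to 525 bp with a median of 244, against a median of 117 over all terminal peaks. The latter were not limited to a pileup of at least 20 and had a median pileup of 16, so these widths are not compared on like terms. For hexamers anywhere in the interval the share over all terminal peaks was not computed, and a wider interval holds one more readily. In H1-10, MACROH2A2, CENPA and H2AX the edge of the strongest terminal peak was 72 to 210 bp past the canonical end, so a hexamer at its usual place before that end lay over 50 bp from the edge.

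**Figure D2:**
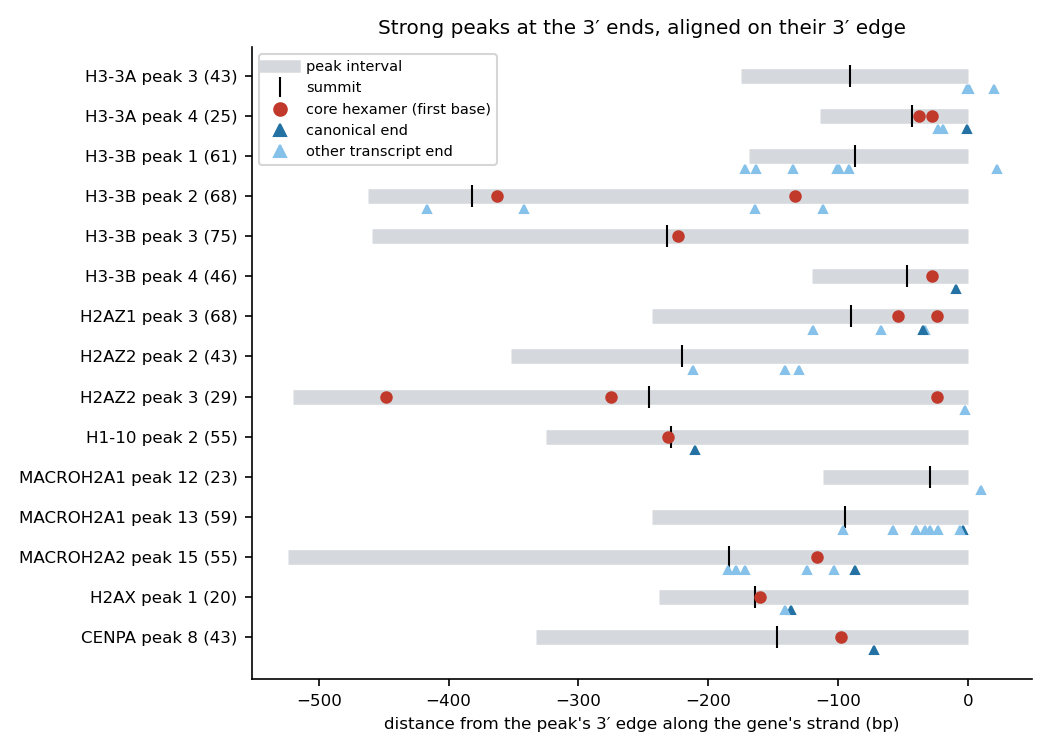
Intervals of the 15 strongest peaks at 3′ ends of members, aligned on the 3′ edge (x axis, bp along the strand of the gene), with the pileup in brackets, the summit as a bar, core hexamers as dots and annotated transcript ends as triangles. In H3-3A peak 4, H3-3B peak 4, H2AZ1 peak 3 and H2AZ2 peak 3 a hexamer lies 24 to 28 bp before the edge, whereas in H1-10 peak 2 it lies 231 bp before it.

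Of the 26 intronic peaks 17 were A-rich (65.4%, exact 95% interval 44.3% to 82.8%), against 71.4% of 95745 intronic peaks of protein-coding genes on 1 strand, and 5 had a core hexamer within 50 bp (19.2%), against 17.0%. On 1 strand the counts were 14 of 22 (63.6%) and 5 of 22 (22.7%). Both shares are near those of all genes. Of the 26, 3 had both features and 7 had neither. Among the terminal peaks 4 of 24 were A-rich (16.7%), and 2 of 18 on 1 strand (11.1%), against 22.9%. On the strand opposite to the gene, 0 of the 26 intronic peaks were A-rich, which allows a share of up to 13.2% (exact 95% interval). At 4 peaks, shown with the 10 bases past the edge in capitals, all of those bases were A.
MACROH2A1, peak 8, pileup 21 (chr5:135351561-135351590, − strand): cctatctgtaaaaaaaaaaaAAAAAAAAAA
MACROH2A2, peak 9, pileup 22 (chr10:70081062-70081091, + strand): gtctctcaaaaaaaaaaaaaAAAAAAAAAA
MACROH2A2, peak 2, pileup 12 (chr10:70060960-70060989, + strand): tgacagagactctgtctaaaAAAAAAAAAA
MACROH2A1, peak 12, pileup 23, in the 3′ UTR (chr5:135334913-135334942, − strand): ccccaccttcagtttaaaagAAAAAAAAAA
Other intronic peaks had AATAAA a short way upstream of the edge, which is shown in capitals for peaks of MACROH2A2 with pileups of 12 and 13 and for a peak of CENPA with a pileup of 21.
MACROH2A2, peak 1 (chr10:70053832-70053861, + strand): taatAATAAAaatatcgaaaaagggaataa
MACROH2A2, peak 6 (chr10:70069033-70069062, + strand): aaaaAATAAAagtgcatcataaaatcagtg
CENPA, peak 6 (chr2:26785321-26785350, + strand): aagaAATAAAatttagaaaattaaaattcc
Peak 1 of MACROH2A2 was itself A-rich, with 7 A in 10, while peak 6 of each gene was not.

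**Figure D3:**
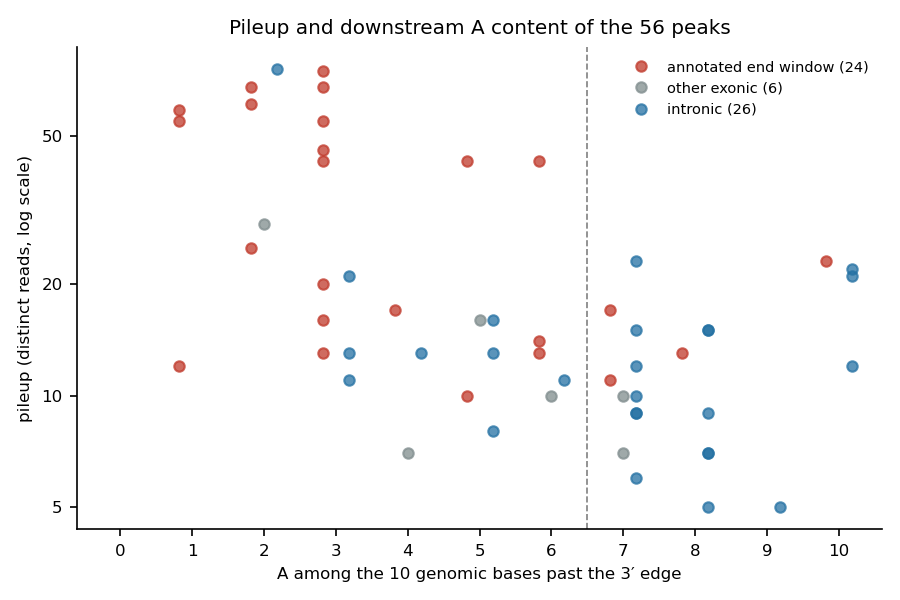
Pileup of the 56 peaks (y axis, distinct reads, log scale) by the number of A among the 10 genomic bases past the 3′ edge, read along the gene (x axis), coloured by class, with the limit of 7 A as a dashed line. The 17 A-rich intronic peaks have pileups of 5 to 23, and the peaks above a pileup of 40 all have 6 A or fewer.

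Of the replication-dependent histone genes 40 of 68 (58.8%) had a terminal peak, where 9 of 9 members and 68.7% of all protein-coding genes did. The strongest terminal pileup of those 40 ran from 9 to 57 with a median of 15, and that of the members from 20 to 75 with a median of 55. The ranges overlapped. The highest replication-dependent genes were H4C3 with 57 and the convergent neighbours H2AC20 and H2AC21, which share a peak of 51. Of further replication-independent histone genes, H3-5 had a terminal peak with a pileup of 20 and H2AJ one with a pileup of 11. H3-5 is a separate gene that matched the coding sequence of H3-3B at 96.6% identity.

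**Figure D4:**
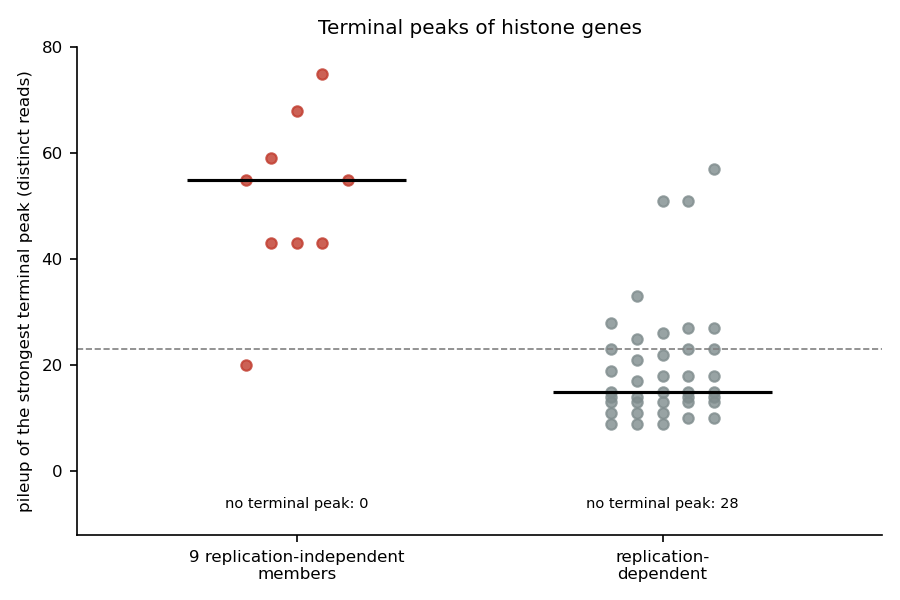
Pileup of the strongest terminal peak (y axis, distinct reads) for each member and each replication-dependent histone gene that had one (x axis, class), with the class median as a bar and the median of all genes, 23, as a dashed line. Members lie between 20 and 75 with a median of 55, and 28 of 68 replication-dependent genes had no terminal peak.

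The factors that deposit or act with these histones were counted in the same way, beside the 68.7% of protein-coding genes that had a terminal peak. For H3.3, 7 of 7 depositors had one, from a pileup of 48 for ATRX, a remodeller that works with DAXX, to 16 for HIRA, the core of the other H3.3 chaperone complex. For H2A.Z, 10 of 10 exchange factors had one, from 51 for ACTL6A to 15 for DMAP1, both subunits of chromatin remodelling complexes. For CENP-A, 4 of 4 loading factors had one, from 42 for OIP5 to 19 for HJURP, its chaperone. For H2AX, 4 of 4 genes had one, from 45 for BAZ1B, a kinase of H2AX, to 18 for ATM, which phosphorylates it at breaks. The medians of these lists were 23, 31, 33 and 33.5, against 23 for all genes and 55 for the members.

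Several members have copies elsewhere in the genome, among which reads of identical sequence cannot be placed. The coding sequence of H3-3A had 21 copies of at least 200 bp and 85% identity, 1 of them identical over its whole length, and 4 copies had a peak of their own, with pileups of 7 to 18. H2AZ1 had 6 copies, at up to 95.6% identity, and none had a peak. H3-3B and H2AZ2 had 1 each, and H2AX matched 7 other H2A genes at up to 88.3%. H1-10, MACROH2A1, MACROH2A2 and CENPA had none. At the peaks themselves, peak 3 of H3-3A matched 4 other places over at least 75 bp at 98% identity or more. Peaks 1 and 4 of H3-3A matched 3 each, and peak 2 of H2AZ2, its strongest terminal peak, matched 1. At this limit the peaks of H3-3B and the main peak of H2AZ1 matched none. Peak 8 of MACROH2A2, a terminal peak with a pileup of 13 at a retained-intron transcript, lay in repeated sequence that matched 76333 other places at 90% identity or more and 32 at 98%.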

How the data were processed

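Poly(A) 3′-sequencing libraries of 10 samples (QuantSeq REV) were analysed from 1 peak list. Per the paper and the labels, the authors trimmed the reads, aligned them (STAR 2.5.1b, GRCh38, reads with several places kept), downsampled the libraries, which came from different batches, to the smallest, merged all and called peaks with MACS2 2.1.1 with reads extended to 100 bp. The paper also describes removing peaks that had none of its 12 hexamers upstream but a long genomic run of A downstream. Whether the list precedes or follows that step was not determined. The deposited fold is the ratio of pileup to local background. The deposited p-value and q-value are given as −log10, and the deposited score was not used. Batch and group cannot be told apart in the merged reads, the depth per library is unknown, and no test between samples was possible. About 5.79e+06 distinct reads underlie the list, from its genome background of 0.215.

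Pileup and background were solved from fold and p-value (largest miss of −log10 p 0.000168). On simulated data the same code recovered the values drawn. Summits were annotated with all GENCODE 44 transcripts. Hexamers were searched in the 50 bp before the 3′ edge and A in the 10 bases after it, read along the gene, and distances run from the first base of a hexamer. Copies were found with BLAST 2.17.0. Intervals are exact binomial (95%). All 9 members were named, with the strongest and weakest gene of each partner list and the 3 strongest replication-dependent genes, except for items that are not reported here. Members and lists were chosen with earlier results of these data known. Values were computed with Python 3.11.15, pandas 2.3.3 and scipy 1.17.1.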

Additional observations from a re-analysis of the deposited data

How the results depend on the processing

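No paired analysis was possible because values per library were not given, and for the same reason no replicate could be left out. Of 42 alternatives, 29 left the count within 1.5 times or the share within its interval. With a minimum −log10 q-value of 20 the peaks fell from 56 to 13, the terminal share rose to 76.9% and the intronic share fell to 15.4%, and 7 replication-dependent genes kept a terminal peak in place of 40. With canonical transcripts only the terminal share was 19.1%, and with end windows of 100 bp 28.6%. The share of terminal peaks with a core hexamer was 0% within 50 bp of the summit, 54.2% with the 12 hexamers and 45.8% anywhere in the interval, an alternative chosen after seeing the data. The A-rich share of intronic peaks was 38.5% with at least 8 A and 7.69% past the summit. The median percentile of the members, 96.4 by pileup, was 81.6 by deposited fold and 82.7 by summed pileup. All 9 members had a terminal peak with a minimum of 5, and 8 had one with a minimum of 20 (not H2AX) or with canonical transcripts (not H2AZ2). The summit lies upstream of the cut by construction, and the cause of the other differences was not tested.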

Other observations

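Further peaks lay between 600 and 5000 bp past annotated 3′ ends, outside the rule for the members. MACROH2A1 was followed by peaks at 674 and 1679 bp with pileups of 14 and 19, both in PITX1-AS1. A peak with a pileup of 16 lay 1780 bp past MACROH2A2, in AIFM2. CENPA was followed by a peak at 2607 bp with a pileup of 8, in no other gene. No such peak followed H3-3A, H3-3B, H2AZ1, H2AZ2 or H1-10.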
